A study of Mus musculus with 6 samples.

Results

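The peroxisome module comprised 28 genes, named from a list of genes with known roles in peroxisome assembly and in peroxisomal lipid metabolism, out of 48967 genes with a summed count. Peroxisomes are small organelles bounded by 1 membrane whose matrix enzymes are made in the cytosol and imported as folded proteins by receptors that recognise short targeting signals, while a separate set of proteins inserts the membrane proteins. They shorten very long and branched fatty acids, remove 1 carbon from phytanic acid, and carry out the opening steps of ether phospholipid (plasmalogen) synthesis. Cells that lack peroxisomes accumulate very long chain fatty acids and are short of plasmalogens, and the organelle often lies in contact with lipid droplets.

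The comparison asked whether removing the lipid droplets of the zygote was followed by a different RNA level of these genes at the 2-cell stage. All embryos were wt of the strain F1 (C57Bl/10 X CBA/H) and were cultured in vitro in KSOM without fatty acids from 0.5 to 2.0 dpc (time label day 2). The delipidated group had its lipid droplets aspirated at the zygote stage after centrifugation in medium with cytochalasin B, through an opening in the zona pellucida. The control (IVC) group came from zygotes in culture that are not stated to have gone through this handling, so droplet loss and handling cannot be told apart. Each group had 3 libraries of 3 pooled embryos, and by the study's methods all came from 1 pooled collection of zygotes, so that p-values here measure only the spread between these embryo pools.

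Control replicates 1 to 3 held 12164963, 16165958 and 12980787 counts in genes, and delipidated replicates 1 to 3 held 20059460, 16332103 and 14683741. Values below are given in this order. Delipidated replicate 1 had the most counts and the fewest genes with a count, 17091, against 19408 to 22855 in the other libraries. The same library covered the fewest of the 625 exonic parts (non-overlapping pieces of exons) of the 28 genes, 41.6%, against 51.7% to 58.7% elsewhere, and also the fewest parts of all tested genes, 48.2%. At least 10 counts were reached by 26 of the 28 genes in control replicate 1 and by 24 or 25 in each other library. Levels below are in TMM-scaled CPM (counts relative to the library total), or in CPM per kb of exonic parts where genes are compared with each other. A count of 0 is compatible with up to 3 counts, or 0.148 to 0.253 CPM depending on the library, and this limit covers counting error only.

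The label of 2-cell embryos was checked against markers. All 18 markers of the oocyte and 2-cell embryo had counts, with Oosp1 the most abundant per kb, and their sum was 1984, 1308 and 1951 CPM in control and 1541, 1819 and 2295 CPM in delipidated embryos. The list pools oocyte genes such as Oosp1 with 2-cell genes, so this sum cannot tell a 2-cell embryo from an oocyte. The listed 2-cell genes, of the Zscan4, Tdpoz and Usp17l families, had counts in every library. The 14 cumulus and granulosa markers summed to 6.24, 10.4 and 69.6 CPM in control and 2.47, 9.64 and 12.1 CPM in delipidated embryos, led per kb by Tnfaip6. Of these, Ptx3 and Foxl2 were at 0 in all 6 libraries, and Cyp11a1 was at 49.6 CPM in control replicate 3. The 9 stromal markers, led by Sparc per kb, summed to 33.2, 25.8 and 59.1 CPM in control and 1.93, 12.8 and 21.0 CPM in delipidated embryos. Vim, at 12.8, 8.77 and 22.8 CPM in control, was at 0 in all delipidated libraries, as was Col1a1, with 11, 26 and 42 counts in control. Of the 6 stromal markers tested in the main edgeR fit, 3 were lower at an unadjusted p under 0.05, against 1.74% of all tested genes. These were Vim (adjusted p of 0.0721), Col1a1 and Sparc (each adjusted p = 1), and none was called in that fit. Without a filter on low counts before the fit, edgeR called 25 and DESeq2 40 of all genes lower. Whether these markers were among them is not reported here. Postn was at 7.17, 5.14 and 4.71 CPM in control and at 0, 8.79 and 14.6 CPM in delipidated embryos, and Dcn was seen in delipidated replicate 3 only. The 9 leukocyte markers, led by Cd74 with S100a8 at 0, summed to 8.52, 7.14 and 7.45 CPM in control and 6.67, 3.50 and 4.31 CPM in delipidated embryos. The 8 oviduct markers summed to 90.4, 251 and 127 CPM in control and 173, 205 and 113 CPM in delipidated embryos, nearly all of it Epcam, while Foxj1 was at 0 in 4 libraries. The part of cells other than blastomeres in the values of the peroxisomal genes was not tested, and in pooled embryos fewer cells of a type and less RNA per cell cannot be told apart.

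None of the 28 peroxisomal genes was called different between delipidated and control embryos. Of the 28, 25 passed the filter on low counts, and Abcd2, Amacr and Ehhadh did not. With edgeR's quasi-likelihood test, a call required a Benjamini-Hochberg adjusted p under 0.05 and a log2 fold change beyond 1. In either direction 0 of the 25 passed, against 0% of the 16020 genes tested. Each of the 25 had adjusted p = 1 in edgeR. At an unadjusted p under 0.05 there were 0 members higher and 0 lower, where the background was 1.15% of tested genes higher and 1.74% lower. Groups without overlap, with every delipidated library above or below every control library, were found for 0 of the 28 genes in either direction, against 3.81% of tested genes higher and 5.05% lower. DESeq2 with no filter also called 0 of the 28, while of all 30967 genes it called 9 higher and 40 lower. It had 1 member at an unadjusted p under 0.05 (Pex2), beside 4.33% of all its genes in both directions together. With limma-voom 0 members were called and 0 were under that p, beside 3.86% of all tested genes. An exact permutation test of 3 against 3 libraries cannot go below p = 0.1.

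The log2 fold changes of the 25 tested members had a median of −0.045, beside −0.00073 over all tested genes, with 11 above 0 and 14 below. They ranged from −1.54 for Pex26 to 2.08 for Pex2. The 95% intervals of the members had a median half-width of 1.18 on the log2 scale, beside 1.30 over all tested genes, so that for most members a change of 2-fold was not detectable at this spread. The interval lay within 2-fold in both directions for 3 members, Agps, Far1 and Gnpat, and this held for Agps in every alternative fit. Leaving out a single library moved 4 members to an unadjusted p under 0.05, in 5 fits where 3.43% to 5.61% of all tested genes were under it. Pex2 reached an unadjusted p of 0.0343 (log2 fold change 2.95) without control replicate 1 and of 0.0300 (2.48) without delipidated replicate 3. Without control replicate 2, Pex3 reached 0.0293 (0.89) and Pex5 0.0493 (−1.12). Pex5 also reached 0.0387 (−1.21) without delipidated replicate 1, and Crat 0.0264 (−1.93) without delipidated replicate 2. Adjusted over all genes, none of these was called.

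**Figure D1:**
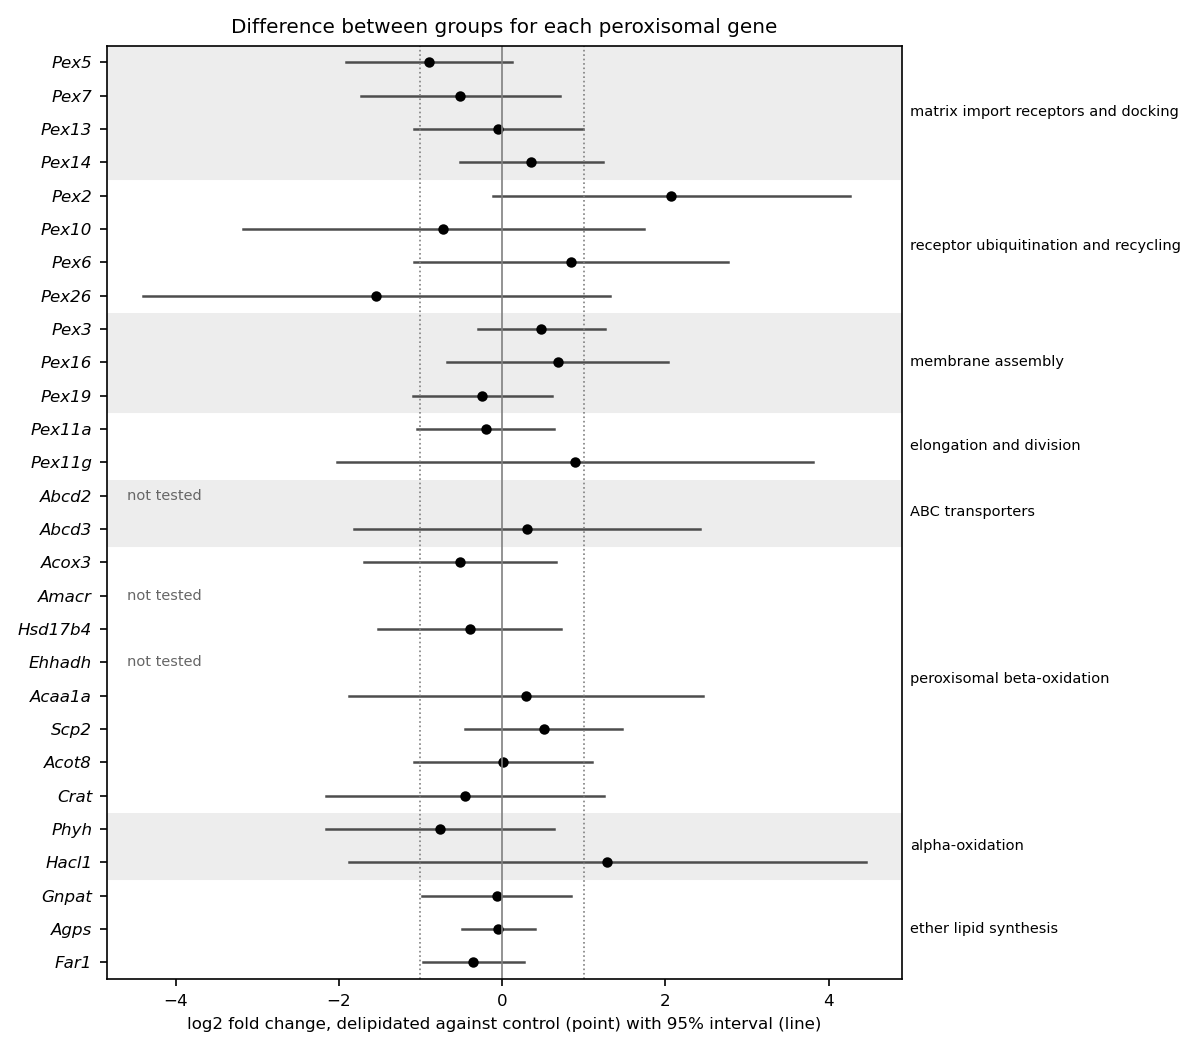
Log2 fold change (horizontal axis, delipidated against control) of each peroxisomal gene, ordered by role; points are edgeR estimates, lines their 95% intervals over 3 libraries a group, and dotted lines mark 2-fold. Every interval includes 0, the narrowest is that of Agps, and the 3 genes without a point were removed by the filter.

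Ether lipid synthesis had the most abundant member. Agps, the alkylglycerone phosphate synthase that forms the ether bond (ENSMUSG00000042410, chr2:75832177-75931350), was at 209.6, 216 and 179 CPM in control embryos and at 168, 196 and 222 CPM after delipidation. All 6 values lay close together, the delipidated range enclosed the control range, and counts were present on 29 to 33 of its 33 exonic parts. Its level was 21.4 ± 2.11 CPM per kb in control and 20.7 ± 2.83 CPM per kb in delipidated embryos (SD, n = 3), the highest of the 28 and higher than 83.4% of tested genes. Agps differed by a log2 fold change −0.045 ± 0.20 (SE), 95% interval −0.49 to 0.40. Gnpat, the acyltransferase that acts just before Agps, was at 13.3 ± 0.706 CPM per kb in control and 12.7 ± 7.57 CPM per kb in delipidated embryos (SD, n = 3), with a log2 fold change −0.066 ± 0.42 (SE), 95% interval −0.98 to 0.84. Its 26 parts are all listed under an identifier joined with the overlapping genes Trim67 and Gm16163 and were assigned by exon overlap. Far1, the reductase that supplies the fatty alcohol, was at 9.59 ± 1.52 CPM per kb in control and 7.50 ± 1.77 CPM per kb in delipidated embryos (SD, n = 3), with a log2 fold change −0.35 ± 0.28 (SE), 95% interval −0.97 to 0.27. The 3 genes together gave 344, 326 and 297 CPM in control embryos and 253, 309 and 331 CPM after delipidation. Per kb they held 31.0% of the summed level of the 28 genes as a mean over libraries (range 21.1% to 35.0%). None of the 3 was called, and the sign of each estimate changed under at least 1 alternative.

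The membrane assembly genes were also abundant per kb. Pex16, an integral membrane protein that helps bring other membrane proteins to the peroxisome (ENSMUSG00000027222, chr2:92374676-92381217), was at 34.7, 21.6 and 5.85 CPM in control embryos and at 59.1, 23.3 and 17.2 CPM after delipidation. Control replicate 3 was the lowest and delipidated replicate 1 the highest, and the other 4 values lay between them without separating the groups. The log2 fold change 0.68 ± 0.62 (SE), 95% interval −0.68 to 2.04, turned to −0.03 without delipidated replicate 1. Pex3, the membrane anchor for Pex19, was at 7.93 ± 3.39 CPM per kb in control and 11.1 ± 2.08 CPM per kb in delipidated embryos (SD, n = 3), with a log2 fold change 0.48 ± 0.36 (SE), 95% interval −0.30 to 1.26. Pex19, the cytosolic chaperone of peroxisomal membrane proteins, was at 13.9 ± 4.15 CPM per kb in control and 11.8 ± 5.24 CPM per kb in delipidated embryos (SD, n = 3), with a log2 fold change −0.24 ± 0.39 (SE), 95% interval −1.09 to 0.61. Per kb over the 6 libraries, Pex16, Gnpat and Pex19 followed Agps in the order of levels, and the ranges of mean ± SD of these 3 overlapped.

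The matrix import group holds the receptors Pex5 and Pex7, which bind the C-terminal and the N-terminal targeting signal, and the docking proteins Pex13 and Pex14. Pex13, the member with the highest level per kb in the group (ENSMUSG00000020283, chr11:23646479-23665959), was at 44.6, 18.7 and 52.2 CPM in control embryos and at 43.4, 17.4 and 51.2 CPM after delipidation. Replicate 2 was the lowest library of each group, and the 2 groups covered nearly the same range. Pex13 stood at 8.29 ± 3.79 CPM per kb in control and 8.04 ± 3.82 CPM per kb in delipidated embryos (SD, n = 3), with a log2 fold change −0.044 ± 0.47 (SE), 95% interval −1.08 to 0.99. Pex5, singled out after its values were seen because its unadjusted p was the second smallest of the members (ENSMUSG00000005069, chr6:124396816-124415067), was at 23.5, 13.1 and 23.0 CPM in control embryos and at 14.96, 7.80 and 9.32 CPM after delipidation. The delipidated values were the low ones, but delipidated replicate 1 lay above control replicate 2. Its log2 fold change −0.89 ± 0.47 (SE), 95% interval −1.91 to 0.13, had an unadjusted p of 0.0808. Pex7 was the least abundant of the 4 at 0.905 ± 0.295 CPM per kb in control and 0.635 ± 0.303 CPM per kb in delipidated embryos (SD, n = 3), and Pex14, for which 35.3% of counts fell where a gene of the other strand also has an exon, was at 3.25 ± 0.572 CPM per kb in control and 4.17 ± 1.61 CPM per kb in delipidated embryos (SD, n = 3).

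The receptor ubiquitination and recycling genes were low and variable. Pex6, an ATPase that pulls the used import receptor out of the membrane (ENSMUSG00000002763, chr17:46711463-46725541), had the highest level of the 4 per kb over the 6 libraries and measured 3.88, 11.7 and 1.90 CPM in control embryos and 21.3, 8.36 and 1.83 CPM after delipidation. Both replicate 3 libraries were low, delipidated replicate 1 was the highest, and the groups overlapped. The log2 fold change 0.84 ± 0.88 (SE), 95% interval −1.08 to 2.77, turned to −0.20 without delipidated replicate 1. Pex2, a ubiquitin ligase of the RING type (ENSMUSG00000040374, chr3:5560188-5576239), was also singled out after its values were seen and had 31, 18 and 5 counts in control embryos and 207, 83 and 27 after delipidation. In CPM this was 2.62, 1.09 and 0.380 in control and 10.2, 5.10 and 1.91 in delipidated embryos. Delipidated replicates 1 and 2 were above all controls and delipidated replicate 3 was below control replicate 1. Its log2 fold change 2.08 ± 1.00 (SE), 95% interval −0.11 to 4.26, had the smallest unadjusted p of the members, 0.0602, and without delipidated replicate 1 the estimate was 1.36. Counts lay on 2 to 6 of its 14 parts in each library. Pex10, the ligase partner of Pex2, had 57, 51 and 134 counts in control embryos and 1, 108 and 61 after delipidation, with delipidated replicate 1 near 0 and the other delipidated values inside the control range. Pex26, which anchors Pex6 at the membrane, was the least abundant tested member over the 6 libraries, at 0.470 ± 0.506 CPM per kb in control and 0.162 ± 0.143 CPM per kb in delipidated embryos (SD, n = 3). Its log2 fold change of −1.54 became −0.17 without control replicate 3, where it had 78 counts against 18 and 9 in the other controls.

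Of the genes for elongation and division, Pex11a, a membrane protein that tubulates peroxisomes (ENSMUSG00000030545, chr7:79735957-79743131), was at 17.0, 28.3 and 24.0 CPM in control embryos and at 21.7, 22.6 and 16.1 CPM after delipidation. Its values varied little and the groups overlapped, with a log2 fold change −0.20 ± 0.39 (SE), 95% interval −1.04 to 0.64. Pex11g, a related membrane protein, was about an order of magnitude less abundant, at 0.484 ± 0.589 CPM per kb in control and 0.908 ± 0.129 CPM per kb in delipidated embryos (SD, n = 3). It had 0 counts in control replicate 1, and 51.9% of its counts lay on parts shared with a gene of the other strand. Its log2 fold change of 0.90 became −0.48 without those parts, and leaving out single libraries gave 0.32 to 2.51.

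**Figure D2:**
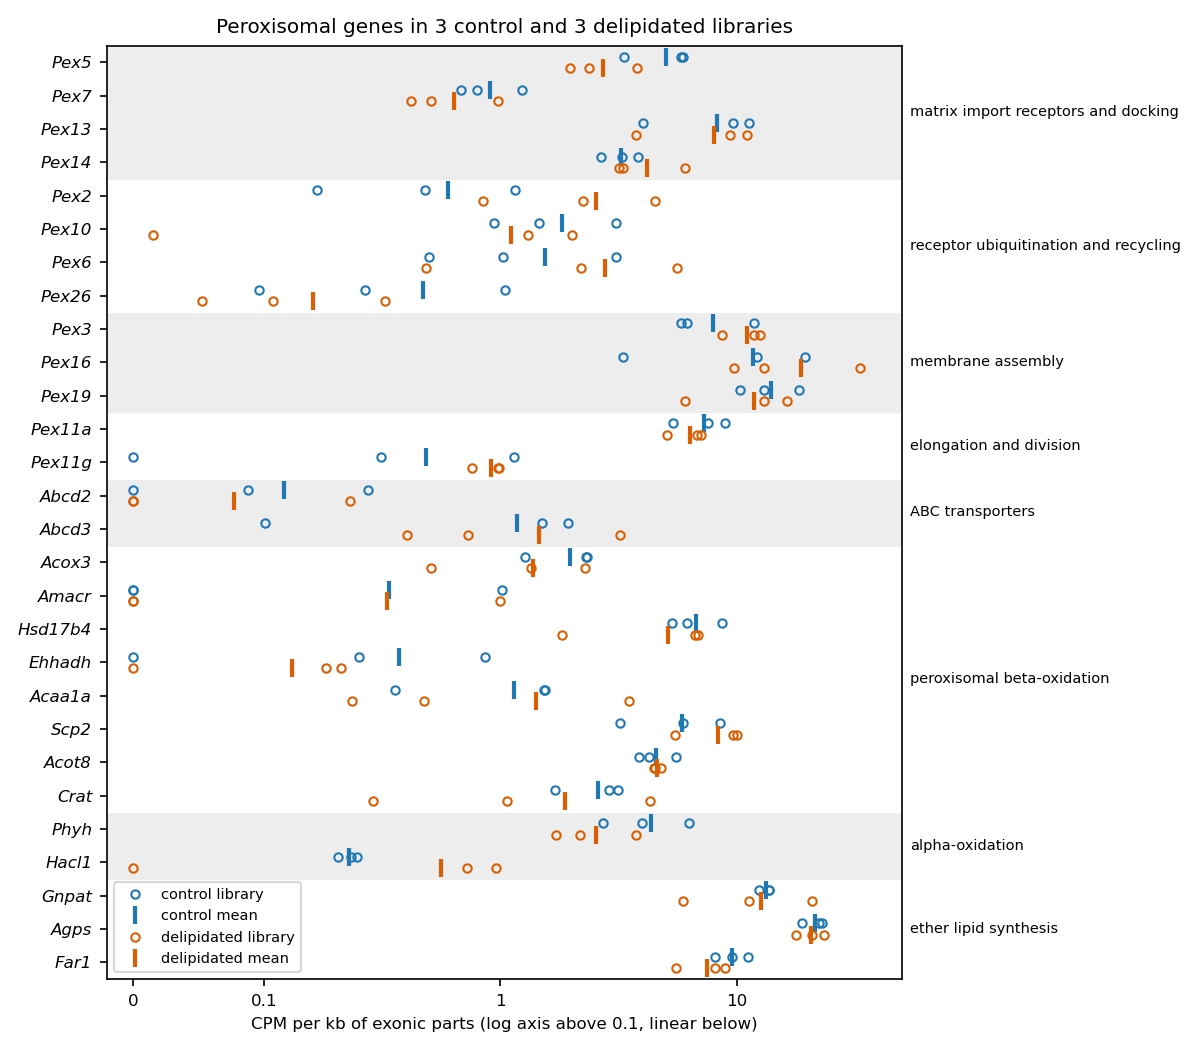
Level of each peroxisomal gene in CPM per kb of exonic parts (horizontal axis, log scale above 0.1 and linear below) in the 3 control (blue) and 3 delipidated (orange) libraries, with bars at the group means. Agps has the highest means, at about 21 CPM per kb, with its 6 libraries close together, and most genes under 1 CPM per kb have at least 1 library at or near 0.

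The ABC transporters, which carry acyl-CoA esters into the organelle, were scarce. Abcd3 (ENSMUSG00000028127, chr3:121758774-121815302) was at 12.7, 0.665 and 9.88 CPM in control embryos and at 4.79, 2.64 and 21.2 CPM after delipidation. Control replicate 2 was the lowest and delipidated replicate 3 the highest library, and each group spanned low and high values, with a log2 fold change 0.30 ± 0.97 (SE), 95% interval −1.82 to 2.42. It turned to −1.06 without delipidated replicate 3. Abcd2 (ENSMUSG00000055782, chr15:91145884-91191807) had 18, 8 and 0 counts in control embryos and 0, 0 and 18 after delipidation and was not tested in the main fit. It was at 0 in 1 control and 2 delipidated libraries, and edgeR without a filter did not call it. DESeq2 did not call it either, and whether Abcd2 had an adjusted p there is not reported here.

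The 8 genes of beta-oxidation, the stepwise shortening of acyl-CoA, summed to 86.5, 93.4 and 108 CPM in control embryos and 65.7, 107 and 94.6 CPM after delipidation. Of the 6 tested, 3 had estimates above 0 and 3 below. Scp2 (ENSMUSG00000028603, chr4:108043839-108144998) had the highest level of the 8 per kb over the 6 libraries, at 5.88 ± 2.65 CPM per kb in control and 8.37 ± 2.51 CPM per kb in delipidated embryos (SD, n = 3). Scp2 was at 11.1, 29.6 and 20.6 CPM in control embryos and at 34.8, 33.5 and 19.1 CPM after delipidation. Control replicate 1 was the lowest, delipidated replicates 1 and 2 were the highest, and delipidated replicate 3 lay inside the control range. The difference was a log2 fold change 0.51 ± 0.44 (SE), 95% interval −0.46 to 1.48, and it turned to −0.22 on the single part with the most counts. This gene encodes a long protein with a thiolase domain that cleaves branched chain substrates, and, from a start further downstream, a short sterol carrier protein. The coding transcript with the most downstream start spans chr4:108044550-108071419 on the minus strand, so parts upstream of it belong to the long form only. The remaining parts are called shared, and those within this span serve both forms. Shared parts from 108043839 to 108044549 lie beyond the end of this transcript and had counts in delipidated replicate 2 only. The 22 upstream parts had 61, 282 and 151 counts in control and 536, 290 and 100 in delipidated libraries. The 12 shared parts had 71, 207 and 120 and 168, 256 and 170. The upstream share was 53.2% ± 6.13 in control and 55.4% ± 19.6 in delipidated embryos (SD, n = 3). Exons of the long form were thus represented in all 6 libraries, and the group shares differed by less than their spread.

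Among the enzymes that act on straight and branched chains, Hsd17b4, which hydrates and dehydrogenates in the main peroxisomal route, was at 6.71 ± 1.73 CPM per kb in control and 5.10 ± 2.84 CPM per kb in delipidated embryos (SD, n = 3), with a log2 fold change −0.40 ± 0.51 (SE), 95% interval −1.51 to 0.72. Delipidated replicate 1 was its low library, with 126 counts on 6 of 31 parts, against 21 to 23 parts elsewhere. Ehhadh, which carries out the same pair of reactions with the other stereochemistry (ENSMUSG00000022853, chr16:21761287-21787844), had 9, 43 and 0 counts in control embryos and 0, 9 and 9 after delipidation and was not tested in the main fit. Its level per kb, 0.371 CPM per kb in control and 0.131 CPM per kb in delipidated embryos, was far under that of Hsd17b4. Amacr, the racemase for branched chain acyl-CoA (ENSMUSG00000022244, chr15:10981756-10996624), had 31, 0 and 0 counts in control embryos and 52, 0 and 0 after delipidation. It was seen in 1 library of each group only, replicate 1 in both, and was not tested in the main fit.

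Acox3, an oxidase of branched chain substrates, was at 1.96 ± 0.597 CPM per kb in control and 1.38 ± 0.890 CPM per kb in delipidated embryos (SD, n = 3), and Acaa1a, a thiolase, at 1.15 ± 0.684 CPM per kb in control and 1.41 ± 1.83 CPM per kb in delipidated embryos (SD, n = 3). Acaa1a has a near-identical copy, Acaa1b, and 32.9% of its counts lay on parts shared with the opposite strand, so its value is uncertain. Acot8, a thioesterase that releases free acids, was steady at 4.55 ± 0.885 CPM per kb in control and 4.59 ± 0.168 CPM per kb in delipidated embryos (SD, n = 3), with a log2 fold change 0.014 ± 0.50 (SE), 95% interval −1.07 to 1.10. Crat, which turns acetyl-CoA into acetylcarnitine for export, had 109, 257 and 224 counts in control embryos and 116, 377 and 22 after delipidation. Delipidated replicate 2 was its highest library and delipidated replicate 3 its lowest, so the delipidated values enclosed the control values.

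In alpha-oxidation, the removal of 1 carbon from phytanic acid, Phyh, the hydroxylase of the opening step (ENSMUSG00000026664, chr2:4919019-4938730), was at 11.9, 5.14 and 7.53 CPM in control embryos and at 4.10, 3.26 and 7.13 CPM after delipidation. Control replicate 1 was the highest and the other values overlapped, with a log2 fold change −0.76 ± 0.64 (SE), 95% interval −2.15 to 0.63. Hacl1, the lyase that follows, had 12, 20 and 15 counts in control embryos and 95, 58 and 0 after delipidation. It was at 0 in delipidated replicate 3 and higher in delipidated replicates 1 and 2 than in any control library. All of its parts carry an identifier joined with the overlapping gene Colq, and the log2 fold change of 1.29 became −0.14 with limma-voom.

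The 28 genes summed to 689, 688 and 657 CPM in control embryos and 651, 673 and 658 CPM after delipidation. These sums lay within a narrow range although single members differed several fold between libraries, and Agps alone made up 25.8% to 33.7% of them. By level per kb, 13 of the 28 genes were above the median of all tested genes, 3.47 CPM per kb, and the median of the 28 was 2.84 CPM per kb. The order depended on which parts were used. Counted on the longest part of each gene only, 7 of the 28 were above the corresponding median, Pex11a came before Agps, and Pex16, Abcd3, Hsd17b4, Scp2 and Hacl1 had 0 counts on that part. Of RefSeq promoters on GRCm38.p6 (300 bases around the start), 22 of the 28 genes matched, with a median of 19 CpG dinucleotides, beside 21 over the 10945 tested genes that matched. The highest were Abcd3 with 45 and Pex5 with 39, and the lowest was Pex26 with 7. Across these 22 genes Spearman's rho between CpG number and level per kb was 0.37, given as a description since genes are not independent replicates.

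Another 76 genes of the pathway were listed, 75 were found by symbol, and 55 passed the filter. None of them was called in the main edgeR fit. Of the 55 tested, 1 was higher and 0 lower at an unadjusted p under 0.05, beside the 1.15% and 1.74% of all tested genes. That gene was Vapb, an endoplasmic reticulum protein that tethers peroxisomes through Acbd5. Vapb was at 13.7, 9.62 and 6.46 CPM in control embryos and at 22.7, 14.6 and 24.3 CPM after delipidation (log2 fold change 1.05 ± 0.46 (SE), unadjusted p of 0.0444, adjusted p = 1). All 3 delipidated libraries were above all 3 controls. Vapa, a related gene of the list, was at 50.45 CPM per kb over the 6 libraries against 2.13 for Vapb. Its log2 fold change was −0.14, and its groups overlapped. Groups without overlap were also seen, upward, for Slc27a2 (log2 fold change 0.62), a very long chain acyl-CoA synthetase, and Slc25a17 (0.29), a carrier of the peroxisomal membrane. Downward they included Nudt19 (−3.00) and Cat, the gene of catalase, which had 20, 6 and 52 counts in control embryos and 7, 0 and 0 after delipidation and was removed by the filter. For Cat only the scaled values are apart, by less than 1 count, at 0.363 CPM in control replicate 2 and 0.346 CPM in delipidated replicate 1. Without Cat, there were 3 genes upward and 3 downward of the 55 tested, beside the 3.81% and 5.05% of tested genes given above. The 3 most abundant of the list per kb were Sod1 at 109, Usp9x at 90.3 and Acbd5 at 59.0 CPM per kb over the 6 libraries. Sod1 and Usp9x also act outside peroxisomes. Their log2 fold changes were 0.14, −0.15 and −0.12.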

How the data were processed

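RNA was measured in 6 libraries, 3 control and 3 delipidated. Per the submitters' processing notes and the study's methods, the authors demultiplexed with bcl2fastq 2.20, trimmed with Trimmomatic 0.36, aligned to mm10 with STAR 2.5.2b and counted unique reads in exons with featureCounts; the count values they deposited are raw and given per exonic part, for 425461 parts. A read can be counted in each part it touches, so sums exceed reads. The kit was stranded, but where both strands list a part with identical coordinates (11 pairs with 10 or more counts) their counts had a median ratio of 1, so genes overlapping on opposite strands cannot be told apart.

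Parts were summed to 48967 genes with Python 3.11.15. Of 33309 parts under joined identifiers, 27968 that overlap exons of 1 gene in GENCODE vM21 were assigned to it; the rest, 2.49% to 2.57% of counts, were left out. Groups were compared with edgeR 4.0.16 (R 4.3.3) using filterByExpr (minimum count 10, total 15), TMM and the quasi-likelihood test without covariates; DESeq2 1.42.0 and limma 3.58.1 were alternatives, and the fit was tested on simulated data. The common biological coefficient of variation was 0.663. Library values are given for members past an unadjusted p of 0.05 or without overlap. They are also given for the highest per kb of each role group and for those at 0 in a group or filtered out. Other pathway genes are named by the same tests or as the 3 highest per kb, and Vapa was added after the values were seen. Single values of some of these genes are not reported here. The members and lists were chosen with earlier results of these data known. The count of intervals within 2-fold, the CpG counts, and the library values of Pex2, Pex5, Pex10, Pex26, Crat, Hacl1, Hsd17b4, Vim, Col1a1 and Postn were added after the values were seen. Targeting signals in the protein sequences were not analysed here.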

Additional observations from a re-analysis of the deposited data

How the results depend on the processing

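The number of members called was 0 under all 16 alternatives. Of all genes, edgeR without a filter called 5 higher and 25 lower, and DESeq2 without a filter before the fit 9 and 40. Members at an unadjusted p under 0.05 numbered 1 higher under DESeq2 and under the replicate block (Pex2 in both), and 0 to 1 in each direction with single libraries left out. Of all genes at that p, 437 of 30967 were higher under DESeq2 and 154 of 16020 under the replicate block. The replicate block called 0 genes; same-numbered libraries were not paired by their deviations (correlations −0.0836, 0.0698 and 0.0428), and not every library correlated best with its own number. Members with an interval within 2-fold numbered 5 with no filter, 6 with DESeq2, 1 with the part with the most counts, and 1 to 2 with a library left out. The median log2 fold change of the members stayed between −0.20 and −0.0051. On the longest part, 7 members were above the median level.

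Of 240 member estimates under alternatives that keep all libraries, 11 had the other sign. With the part with the most counts these were Pex7 at 0.041, Abcd3 at −0.20, Hsd17b4 at 0.23, Scp2 at −0.22, Acot8 at −0.42 and Far1 at 0.022. Without opposite-strand parts they were Pex11g at −0.48 and Acot8 at −0.11. Acaa1a was at −0.25 under the replicate block and −0.45 with limma-voom, and Hacl1 at −0.14 with limma-voom. Leaving out single libraries gave 21 of 150 the other sign. The ranges were −0.37 to 0.30 for Pex13, −0.0063 to 0.52 for Pex14, −0.20 to 1.86 for Pex6, −0.033 to 1.27 for Pex16, −0.55 to 0.070 for Pex19, −1.06 to 0.89 for Abcd3, −0.67 to 0.0081 for Hsd17b4, −1.69 to 0.80 for Acaa1a, −0.095 to 0.19 for Acot8, −1.93 to 0.051 for Crat, −0.63 to 0.28 for Gnpat and −0.15 to 0.052 for Agps. The cause of these sign changes was not tested, and 8 of the 25 members kept their sign in every alternative that tested them. Of these, Pex2, Pex10 and Pex26 were not among the 20 members tested on the part with the most counts. Pex26 was also not tested at a mean count of at least 50.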

Other observations

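On Scp2, neighbouring exonic parts shared the same count in runs, and in more than 1 library. Delipidated replicate 1 had 4 adjacent parts at 33 counts and 4 at 48. Delipidated replicate 2 had 34 counts on each of the same 4 parts as the run at 33, and control replicate 2 had 40 on neighbouring parts within it. A read that spans adjacent parts can be counted in each, and how many distinct RNA molecules the counts stand for was not tested. Over the 28 genes, delipidated replicate 1 had counts on 260 of the 625 parts, against 323 to 367 parts in the others, with the highest total count of all 6 libraries.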
